A study of Mus musculus with 6 samples.

Results

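Expression of 10 genes of hepatic fatty acid synthesis was followed through 6 livers of a mouse model of nonalcoholic steatohepatitis: *Thrsp*, *Srebf1*, *Mlxipl*, *Acly*, *Acaca*, *Acacb*, *Fasn*, *Scd1*, *Elovl6* and *Me1*. They were chosen by name as the core lipogenic enzymes and their regulators, with earlier results of these data known. All 10 were found, once each, among the 24346 gene rows of the table. Liver RNA was sequenced from 3 control mice and 3 lipophagy-induced mice, all male, of the strain C57BL/6 by the labels and C57BL/6J by the study's methods. The mice were 8 weeks old when they were put on CDAHFD, a high-fat diet that lacks choline and has defined amino acids in place of protein, and they received it for 6 weeks. They were then injected once with AAV8, returned to a normal diet and analysed 2 weeks later. Control mice received LDTS-LIR mut, a lipid droplet-targeting sequence fused to an LC3-interacting region that cannot bind LC3. Lipophagy-induced mice received LDTS-eLIR, in which the engineered region recruits autophagosomes to the droplet. Both vectors were driven by the liver-specific thyroxine-binding globulin promoter and both carried the droplet-targeting part of mouse perilipin 1, which the study describes as lipogenic by itself, so the control livers were not livers without a vector. Each label gives one liver, and expression was deposited as FPKM (fragments per kilobase of transcript and per mapped library size).

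In the liver, surplus carbohydrate is turned into fat through citrate. Citrate is cleaved to acetyl-CoA, acetyl-CoA is carboxylated to malonyl-CoA, and malonyl-CoA is built into palmitate, which is then elongated and desaturated before it enters triglyceride. Transcription of these enzymes is set mainly by SREBP1 (gene *Srebf1*), which responds to insulin and to the liver X receptor (LXR), and by ChREBP (gene *Mlxipl*), which responds to glucose. Thyroid hormone responsive Spot 14 (gene *Thrsp*) is a small protein that promotes fatty acid synthesis and is itself among the most diet-responsive transcripts of the liver.

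The clearest difference was in *Thrsp*, whose mean was 5-fold higher in the lipophagy-induced livers, although it did not pass the adjustment over all genes. *Fasn*, *Elovl6*, *Srebf1*, *Acly* and *Scd1* shared another pattern, with the highest value in lipophagy liver 1, an intermediate one in lipophagy liver 3 and a value near the controls in lipophagy liver 2. Both acetyl-CoA carboxylases were modestly higher in all 3 lipophagy livers as deposited, although the *Acacb* groups overlapped once every liver was scaled to the same summed FPKM. *Mlxipl* and *Me1* had the smallest log2 changes, and their groups overlapped, as did those of *Srebf1*, *Acly*, *Fasn* and *Scd1*.

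Upstream sequences are shown for *Thrsp*, the member with the largest difference, and for *Srebf1* and *Fasn*, a regulator and an enzyme of the shared pattern. RefSeq windows on GRCm38.p6, the build that the submitters' notes call mm10, were matched by symbol for 9 of the 10 genes (all except *Scd1*), in 13 windows. Each run is the 250 bases before an annotated start, 5′ to 3′ on the gene's strand. The *Thrsp* run is chr7:97417551-97417800, the *Srebf1* run chr11:60210472-60210721, before the most downstream of its 3 starts, and the *Fasn* run chr11:120824548-120824797, all on the minus strand. Capitals mark matches to CCAAT, to the GC box GGGCGG, and to a relaxed direct repeat (NGGTNA and NGGTCA, 4 bases apart) of the kind that LXR binds, each on either strand.
Thrsp: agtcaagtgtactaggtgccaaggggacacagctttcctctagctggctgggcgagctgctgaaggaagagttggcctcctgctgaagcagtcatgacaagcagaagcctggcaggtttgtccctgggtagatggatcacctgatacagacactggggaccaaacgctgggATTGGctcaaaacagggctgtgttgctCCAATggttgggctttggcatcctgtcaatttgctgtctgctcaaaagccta
Srebf1: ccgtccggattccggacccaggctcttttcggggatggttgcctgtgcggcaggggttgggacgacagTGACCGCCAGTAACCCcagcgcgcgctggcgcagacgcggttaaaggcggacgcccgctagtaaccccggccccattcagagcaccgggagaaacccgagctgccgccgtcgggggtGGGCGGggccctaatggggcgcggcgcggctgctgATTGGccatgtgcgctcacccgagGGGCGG
Fasn: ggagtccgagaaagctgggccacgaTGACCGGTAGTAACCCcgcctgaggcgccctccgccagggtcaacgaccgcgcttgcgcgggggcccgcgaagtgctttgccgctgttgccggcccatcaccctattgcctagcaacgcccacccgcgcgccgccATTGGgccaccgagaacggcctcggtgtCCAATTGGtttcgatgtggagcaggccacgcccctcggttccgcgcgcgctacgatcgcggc
CCAAT in either orientation occurred 2 times in the *Thrsp* run, at -79 and -52 from the start, 3 times in the *Fasn* run and once in the *Srebf1* run. It was found in 7 of the 13 member windows, and 33.8% of the 32851 windows in the table hold it. GGGCGG was found in 5 member windows, against 32.7% of all windows. The relaxed direct repeat was present at -182 in the *Srebf1* run as TGACCGCCAGTAACCC and at -225 in the *Fasn* run as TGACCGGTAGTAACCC, and 58 of all windows (0.177%) contain a match. It was found in 2 of the 13 member windows, and no other *Srebf1* window held it. Its relaxed letters were chosen after the *Srebf1* sequence had been seen, so its presence there is no finding. For the same reason the share of all windows is no test of the *Fasn* match. The *Acaca* and *Elovl6* windows held none of the motifs searched. The E-box CACGTG, the core of carbohydrate response elements, was found once, at -98 in a *Mlxipl* window, against 6.02% of all windows. A relaxed sterol regulatory element, TCACNCCNC, matched the other *Mlxipl* window at -136 (4.18% of all windows), and TATAAA matched *Acacb* (12.4%). These matches are letters in a window and were not tested as binding sites.

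Relative to control liver 1, estimated library depth ran from 0.857 in lipophagy liver 2 to 1.27 in control liver 3. Of low FPKM values, 49.8% to 59.2% per liver compared with control liver 1 lay on steps of 1 fragment, against a median of at most 2.16% at other assumed depths. From such steps a depth of 22800000 to 33900000 fragments per liver was estimated, control liver 3 being the deepest. At this depth *Acacb*, the least abundant member, corresponded to an estimated 647 to 844 fragments per liver and the other members to 1283 or more. Counting error was therefore at most 3.9% of any member's value, below the spread between livers. The summed FPKM of all genes was 622696 to 681138 in control livers and 709993 to 782392 in lipophagy livers, without overlap. Scaling every liver to the same sum moved the median log2 change of all genes from 0.02 to -0.12, and many values were lower on that scale. Of hepatocyte markers, 8 of 10 had a higher mean in lipophagy livers, 4 of 10 with quantile normalization or the same sum, and their summed level was 57800 to 64700 FPKM in control and 69800 to 92100 FPKM in lipophagy livers. Most of this sum was *Alb*, the albumin gene, at 37700 ± 1990 and 52700 ± 10000 FPKM (SD, n = 3), and the median log2 change of the list was 0.17, or -0.01 with the same sum. In whole liver, a change in hepatocyte share and a change in RNA per hepatocyte cannot be told apart, and the part of either in the member values was not tested.

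Values are FPKM, and *p* values are from limma on log2(FPKM + 1) over 11493 genes that averaged 0.5 FPKM or more, and they are two-sided and, where called adjusted, corrected by the Benjamini-Hochberg method across those genes. Throughout, genes counted as having a higher or lower mean are those with a log2 change above or below 0. All 10 members were tested, and all 10 had a higher mean in lipophagy livers (9 with quantile normalization or the same sum), against 54.5% of all tested genes. The members were chosen with earlier results of these data known, so such shares describe them and are no test. An adjusted *p* below 0.05 was reached by 0 members and by 0.0261% of all tested genes. At an unadjusted *p* below 0.05, 6 members (*Thrsp*, *Acaca*, *Acacb*, *Elovl6*, *Fasn* and *Acly*) were higher in lipophagy livers and 0 were lower, against 11.5% of all tested genes higher and 7.97% lower. Over all genes these were 1327 higher and 916 lower, and the split was 745 to 899 with quantile normalization and 236 to 2504 with the same sum. The groups did not overlap for *Thrsp*, *Acaca*, *Acacb* and *Elovl6*, all higher, against 15.4% of all tested genes higher without overlap. The median log2 change of the 10 members was 0.52, and it was 0.02 over all tested genes. With the same sum in every liver the number at an unadjusted *p* below 0.05 was 3, and the members lay 0.47 above the median of all genes, compared with 0.50 as deposited. That number was also 3 when control liver 3 was left out (7.84% of all genes), whereas leaving out lipophagy liver 2 gave 8 (9.41% of all genes). In the latter case 8 members did not overlap, against 20.8% of all genes.

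**Figure D1:**
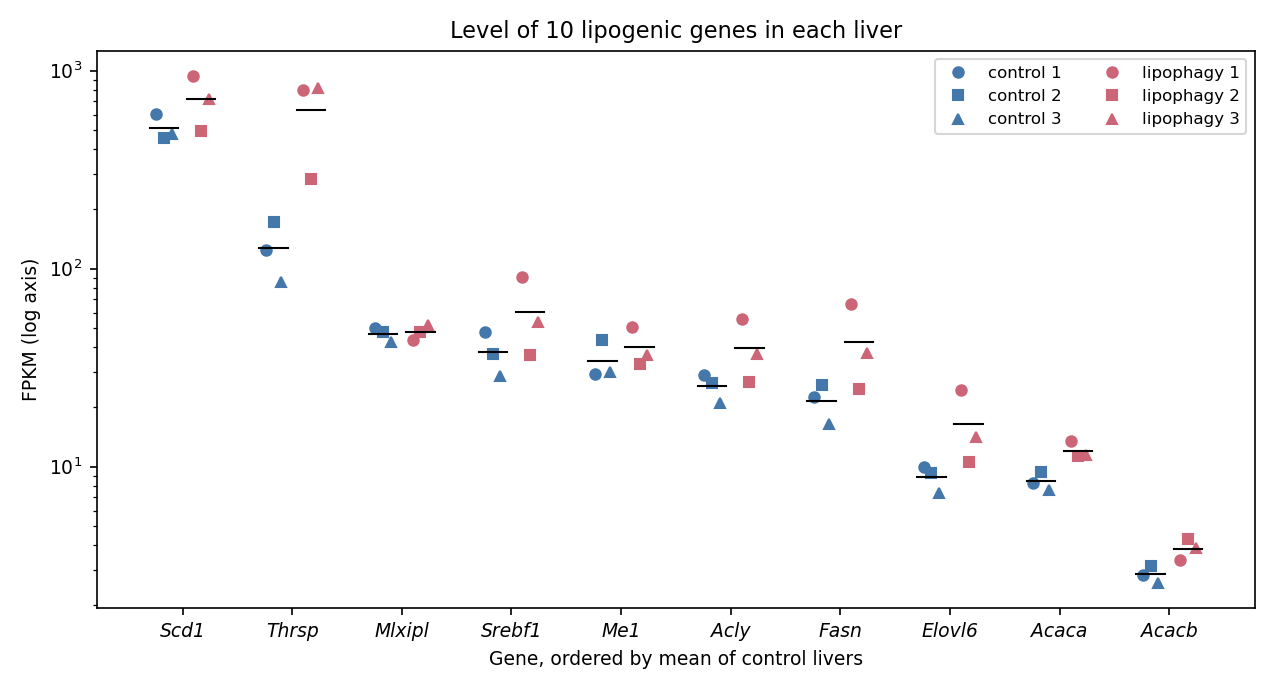
FPKM (log axis) of the 10 genes in each of the 3 control livers (blue) and 3 lipophagy livers (red), with the replicate number as the symbol and the group mean as a black bar. *Thrsp* stands at 85.1 to 172 in control and 284 to 818 in lipophagy livers, whereas *Mlxipl* overlaps.

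Levels differed widely within the pathway, and FPKM, being per length, allows the genes to be ordered. In control livers *Scd1* was highest at 514 FPKM, above 98.6% of tested genes over the 6 livers, followed by *Thrsp* at 127 FPKM. *Mlxipl* (47.0), *Srebf1* (37.9) and *Me1* (34.3 FPKM) came next, and the ranges of neighbours in this trio overlapped. *Acly* (25.5) and *Fasn* (21.6 FPKM) overlapped as well, as did *Elovl6* (8.88) and *Acaca* (8.42 FPKM), and *Acacb* was lowest at 2.87 FPKM. In lipophagy livers *Thrsp* at 635 FPKM reached the range of *Scd1* at 718 FPKM, an overlap that was not seen in control livers. *Srebf1* (60.3), *Mlxipl* (47.9), *Fasn* (42.8), *Me1* (40.1) and *Acly* (39.7 FPKM) then formed a run in which each range overlapped the next.

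Among the regulators, *Thrsp* (chr7:97412938-97417730) had 124, 172 and 85.1 FPKM in control livers 1, 2 and 3 and 802, 284 and 818 FPKM in lipophagy livers 1, 2 and 3. Every lipophagy liver lay above every control liver, and lipophagy livers 1 and 3 stood far above lipophagy liver 2. The means were 127 ± 43.5 and 635 ± 304 FPKM (SD, n = 3), with a log2 change of 2.22 (SE 0.42, 95% interval 1.26 to 3.17, unadjusted *p* = 6.81e-04, adjusted *p* = 0.116, limma). This was the third highest log2 change among the 11493 tested genes. The log2 change was 2.02 with quantile normalization and 2.04 with the same sum in every liver. With lipophagy liver 2 left out it was 2.72 and its adjusted *p* was 0.0406 (limma), while without any other single liver the adjusted *p* was between 0.144 and 0.336.

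*Srebf1* (chr11:60199089-60222581), the gene of SREBP1, had 48.0, 37.2 and 28.7 FPKM in control livers 1, 2 and 3 and 90.4, 36.8 and 53.8 FPKM in lipophagy livers 1, 2 and 3. Lipophagy livers 1 and 3 were above all controls, whereas lipophagy liver 2 fell inside the control range. The log2 change was 0.59 (SE 0.31, 95% interval -0.11 to 1.30, unadjusted *p* = 0.0896, adjusted *p* = 0.319, limma), and the interval included 0. Leaving out lipophagy liver 1 gave 0.26, and leaving out lipophagy liver 2 gave 0.89. The row joins all *Srebf1* transcripts, so the SREBP-1a and SREBP-1c forms, which start at different first exons, were not separated, and some *Srebf1* exons overlap those of *Rai1* on the opposite strand. *Srebf2*, the gene of the paralog that drives cholesterol synthesis, was at 6.41 ± 0.690 and 6.28 ± 0.806 FPKM (SD, n = 3), a log2 change of -0.03 (95% interval -0.28 to 0.22).

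*Mlxipl* (chr5:135089890-135138382), the gene of ChREBP, was the steadiest member. It had 50.4, 48.0 and 42.6 FPKM in control livers 1, 2 and 3 and 43.7, 48.0 and 52.1 FPKM in lipophagy livers 1, 2 and 3. The groups overlapped throughout, and the coefficient of variation was 8.55% in control and 8.80% in lipophagy livers, against 34.3% and 47.8% for *Thrsp*. Its log2 change was 0.03 (SE 0.098, 95% interval -0.20 to 0.25, unadjusted *p* = 0.783, adjusted *p* = 0.894, limma) and was negative with quantile normalization (-0.12) and with the same sum (-0.15). The alpha and beta forms of ChREBP were not separated. *Mlx*, the obligate dimer partner of ChREBP, was at 17.2 ± 1.46 and 20.9 ± 3.45 FPKM (SD, n = 3), with a log2 change of 0.26 (95% interval -0.03 to 0.55). The *Mlx* change was 0.17 with quantile normalization and 0.08 with the same sum.

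*Acly*, *Fasn*, *Elovl6* and *Scd1*, like *Srebf1*, were highest in lipophagy liver 1, next in lipophagy liver 3 and lowest of the lipophagy group in liver 2, an order among lipophagy livers that *Acaca* and *Me1* also had. *Fasn* (chr11:120805846-120824547), the multifunctional synthase that builds palmitate, had 22.4, 25.9 and 16.4 FPKM in control livers 1, 2 and 3 and 66.2, 24.6 and 37.4 FPKM in lipophagy livers 1, 2 and 3. Lipophagy liver 1 was 3.07-fold and lipophagy liver 3 was 1.73-fold the control mean, while lipophagy liver 2 lay below control liver 2. The log2 change of *Fasn* was 0.86 (SE 0.32, 95% interval 0.13 to 1.60, unadjusted *p* = 0.0267, adjusted *p* = 0.213, limma), and without lipophagy liver 1 it was 0.50 at an unadjusted *p* of 0.0631 (limma). The unadjusted *p* of *Fasn* was 0.0503 with the same sum in every liver, and it was 0.0514 without control liver 1, 0.0925 without control liver 3 and 0.0502 without lipophagy liver 3 (limma).

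*Elovl6* (chr3:129532355-129638495), which elongates palmitate to stearate, had 9.997, 9.34 and 7.32 FPKM in control livers 1, 2 and 3 and 24.3, 10.6 and 14.1 FPKM in lipophagy livers 1, 2 and 3. Every lipophagy liver was above every control, although lipophagy liver 2 and control liver 1 nearly touched. Its log2 change was 0.74 (SE 0.26, 95% interval 0.14 to 1.34, unadjusted *p* = 0.0210, adjusted *p* = 0.202, limma), and with the same sum in every liver the groups overlapped. Leaving out lipophagy liver 1 took *Elovl6* to 0.43, and leaving out control liver 3 gave an unadjusted *p* of 0.0727 (limma). *Acly* (chr11:100476353-100528000), the ATP citrate lyase that releases acetyl-CoA in the cytosol, had 29.0, 26.6 and 20.9 FPKM in control and 55.4, 26.7 and 37.1 FPKM in lipophagy livers 1, 2 and 3. Lipophagy liver 2 matched control liver 2 here. The log2 change of *Acly* was 0.57 (SE 0.24, 95% interval 0.02 to 1.12, unadjusted *p* = 0.0442, adjusted *p* = 0.248, limma). It was 0.31 without lipophagy liver 1 (unadjusted *p* = 0.131, limma), 0.45 with quantile normalization (0.0916) and 0.39 with the same sum (0.122). The unadjusted *p* of *Acly* also exceeded 0.05 when control liver 2 (0.0691), control liver 3 (0.142) or liver 3 of the lipophagy group (0.0789) was left out. It was 0.0667 without the filter and 0.0823 with a quality weight for each liver, a weighting that gave 0.0713 for *Fasn*.

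*Scd1* (chr19:44394455-44407879), the desaturase that makes oleate and palmitoleate, had 605, 457 and 481 FPKM in control livers 1, 2 and 3 and 938, 497 and 720 FPKM in lipophagy livers 1, 2 and 3. Lipophagy livers 1 and 3 were above all controls, and lipophagy liver 2 was within their range. Its log2 change was 0.44 (SE 0.22, 95% interval -0.06 to 0.95, unadjusted *p* = 0.0783, adjusted *p* = 0.302, limma), and the interval included 0. The change was 0.22 with quantile normalization and 0.26 with the same sum. It was 0.23 when lipophagy liver 1 was left out and 0.69 when lipophagy liver 2 was left out (unadjusted *p* = 0.00445, limma). Its paralogs were scarce in comparison: *Scd2* was at 1.68 ± 0.256 and 1.22 ± 0.0682 FPKM (SD, n = 3), and *Scd3* and *Scd4* were below the filter. *Scd2* was lower in every lipophagy liver than in every control liver, with a log2 change of -0.27 (SE 0.091, unadjusted *p* = 0.0179, adjusted *p* = 0.194, limma), the opposite direction to *Scd1*. With quantile normalization the *Scd2* change was -0.18 (unadjusted *p* = 0.0858, limma), and with the same sum it was -0.38 (0.00557). Without control liver 2, *Scd2* did not pass an unadjusted *p* below 0.05. The interval of *Scd2* ran from -0.48 to -0.06, and reads shared among these similar genes could blur both values.

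Acetyl-CoA carboxylase has 2 forms. *Acaca* (chr11:84129672-84401651), the cytosolic form whose malonyl-CoA feeds synthesis, had 8.31, 9.36 and 7.58 FPKM in control livers 1, 2 and 3 and 13.4, 11.3 and 11.4 FPKM in lipophagy livers 1, 2 and 3. Lipophagy liver 2 was as high as lipophagy liver 3, and all 3 were above the controls. The log2 change of *Acaca* was 0.47 (SE 0.10, 95% interval 0.23 to 0.70, unadjusted *p* = 0.00179, adjusted *p* = 0.134, limma), with an unadjusted *p* below 0.05 whichever single liver was left out, and it was 0.30 with the same sum. *Acacb* (chr5:114146535-114250761), the mitochondrial form whose malonyl-CoA restrains carnitine palmitoyltransferase 1, had 2.83, 3.16 and 2.60 FPKM in control and 3.39, 4.29 and 3.89 FPKM in lipophagy livers 1, 2 and 3. It was the only member with its highest value in lipophagy liver 2. The log2 change of *Acacb* was 0.33 (SE 0.099, 95% interval 0.10 to 0.56, unadjusted *p* = 0.0104, adjusted *p* = 0.170, limma). With the same sum it was 0.19 (unadjusted *p* = 0.154, limma) and the groups overlapped.

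*Me1* (chr9:86581371-86695953), the cytosolic malic enzyme that supplies NADPH, had 29.3, 43.5 and 30.0 FPKM in control livers 1, 2 and 3 and 50.7, 32.9 and 36.8 FPKM in lipophagy livers 1, 2 and 3. Control liver 2 exceeded lipophagy livers 2 and 3. Its log2 change of 0.22 (SE 0.19, 95% interval -0.22 to 0.66, unadjusted *p* = 0.286, adjusted *p* = 0.538, limma) was within the spread between livers and was 0.04 with the same sum and also 0.04 when lipophagy liver 1 was left out. The paralogs *Me2* (0.804 to 1.06 FPKM over the 6 livers) and *Me3*, which was below the filter, were scarce.

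**Figure D2:**
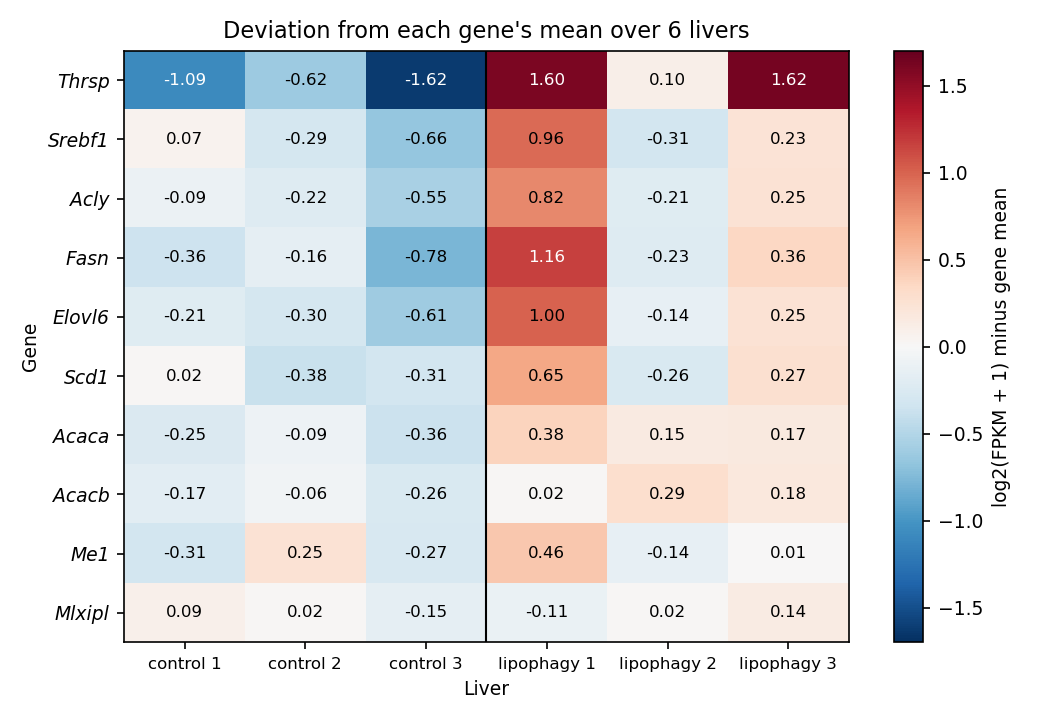
Deviation of log2(FPKM + 1) from each gene's mean over the 6 livers, with genes in rows and livers in columns, red above and blue below the mean. *Srebf1*, *Acly*, *Fasn*, *Elovl6* and *Scd1* are highest in lipophagy liver 1, while *Acaca* and *Acacb* are above their mean in all 3 lipophagy livers.

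Across the 10 members the livers themselves were ranked. Lipophagy liver 1 held the highest value of 7 members, and control liver 3 held the lowest value of 8. The mean deviation over the 10 members was 0.69, -0.07 and 0.35 on the log2 scale in lipophagy livers 1, 2 and 3 and -0.23, -0.18 and -0.56 in control livers 1, 2 and 3. Without *Thrsp* it was 0.59, -0.09 and 0.21 in lipophagy livers and -0.13, -0.14 and -0.44 in control livers. Lipophagy liver 2 was thus close to control livers 1 and 2 once *Thrsp* was left out, and control liver 3 was the low end. For the 10 members the group means were -0.32 ± 0.21 in control and 0.32 ± 0.38 in lipophagy livers (SD, n = 3).

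How closely a pair of genes followed each other was measured as the root mean square difference of their centred log2 values over the 6 livers, where 0 is the same profile. These differences describe genes read in the same 6 libraries, and no test was made of them. Among members, *Acly* and *Elovl6* were closest (0.10), followed by *Srebf1* with *Acly* (0.11), *Srebf1* with *Elovl6* (0.13) and *Fasn* with *Elovl6* (0.14). *Acacb* differed by 0.17 from *Acaca* and equally from *Mlxipl*, all genes of narrow range, and *Thrsp* and *Mlxipl* were farthest apart (1.2). Among 10223 genes that averaged 1 FPKM or more, the 5 profiles nearest to *Srebf1* were those of *Acly*, *Elovl6*, *Nat8* (0.16), *Abcg5* (0.18) and *Cyp2a22* (0.18). *Abcg5*, a sterol transporter subunit, had 41.9, 29.6 and 28.1 FPKM in control and 60.7, 34.7 and 42.9 FPKM in lipophagy livers 1, 2 and 3.

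*Thrsp*, with its wider range, had no profile as near. Its 5 nearest were *Lpin1* (0.54), which makes diacylglycerol for triglyceride, *Tat* (0.63), the tyrosine aminotransferase, *Ppp1r3b* (0.66) and *Ppp1r3g* (0.70), which target a phosphatase to glycogen, and *Hamp2* (0.68), a hepcidin gene with a close copy. *Lpin1* had 5.43, 9.21 and 5.42 FPKM in control and 17.8, 15.8 and 49.2 FPKM in lipophagy livers 1, 2 and 3, so that the groups did not overlap and lipophagy liver 3 was far above the rest. *Tat* had 337, 488 and 240 FPKM in control and 803, 390 and 1000 FPKM in lipophagy livers 1, 2 and 3, with lipophagy liver 2 inside the control range. *Mid1ip1*, the paralog of *Thrsp* whose product activates acetyl-CoA carboxylase, had 22.3, 19.8 and 21.9 FPKM in control and 34.3, 17.5 and 39.8 FPKM in lipophagy livers 1, 2 and 3. It was high in the same 2 livers as *Thrsp*, but lipophagy liver 2 was below every control, and its log2 change was 0.42 (95% interval -0.18 to 1.02, adjusted *p* = 0.389, limma).

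**Figure D3:**
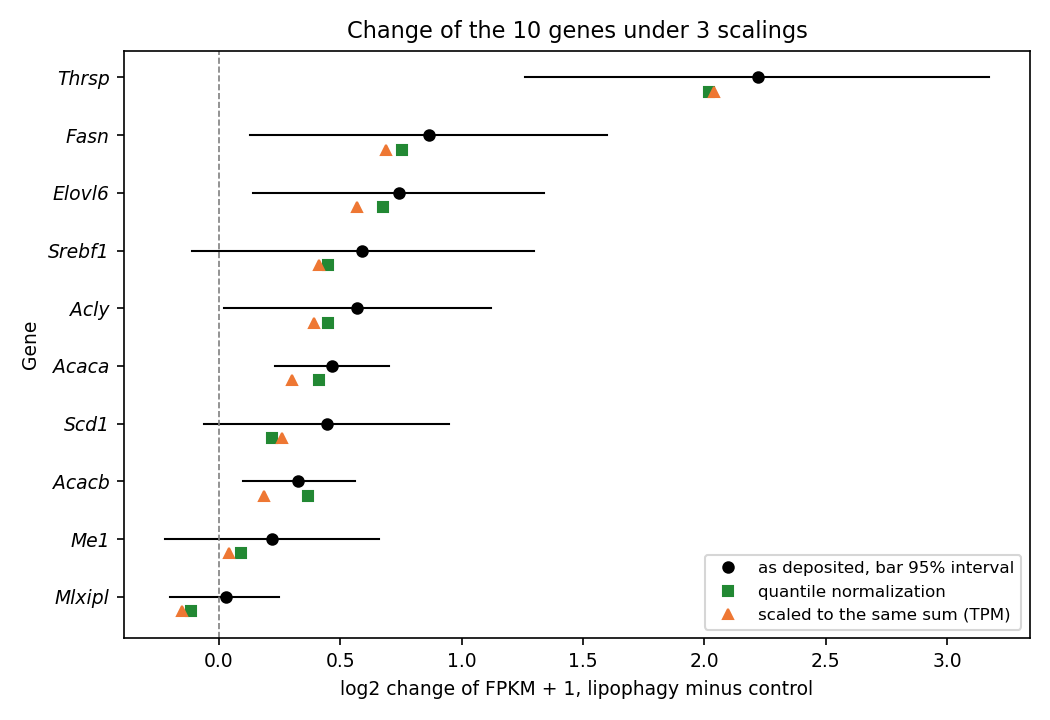
Log2 change of the 10 genes, lipophagy minus control, as deposited (black, with the 95% interval), with quantile normalization (green) and with every liver scaled to the same sum (orange). *Thrsp* stays at 2.02 or above, while *Mlxipl* is at 0.03, -0.12 and -0.15.

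The rest of the pathway was examined through related lists. Some lists share genes, among them *Mid1ip1* and *Insig1*, so their counts are not independent. At an unadjusted *p* below 0.05, 1327 of all 11493 tested genes were higher and 916 lower as deposited. With the same sum these were 236 higher and 2504 lower (limma). Of 13 tested targets of ChREBP other than the members, 12 had a higher mean in lipophagy livers, 11 with the same sum, and the median log2 change was 0.45, which was 0.29 with quantile normalization and 0.27 with the same sum. At an unadjusted *p* below 0.05, 9 were higher and 1 was lower, and with quantile normalization or the same sum 5 were higher and 1 lower. *Rgs16* had the highest log2 change (1.45, SE 0.38, adjusted *p* = 0.145, limma), from 5.46 ± 2.90 to 16.9 ± 8.38 FPKM (SD, n = 3). *Fgf21*, a liver hormone that is also induced by fasting, had the lowest log2 change (-0.83, SE 0.15, adjusted *p* = 0.111, limma), from 3.16 ± 0.709 to 1.33 ± 0.305 FPKM (SD, n = 3). Chosen after their values were seen, the glycolytic and fructolytic genes *Pklr*, *Khk* and *Tkfc* had log2 changes of 1.04, 0.66 and 0.71 without overlap. The log2 change of *Mlxipl* itself was 0.03, and its difference from the targets was not tested.

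Other targets of SREBP1 were mixed. Of 13 tested, 8 had a higher mean, also with quantile normalization and the same sum, and the median log2 change was 0.32, which was 0.19 with quantile normalization and 0.14 with the same sum. At an unadjusted *p* below 0.05, 4 were higher and 2 were lower, but 1 was higher and 4 were lower with the same sum. *Lpin1* had the highest log2 change (1.75, SE 0.39, adjusted *p* = 0.134, limma) and *Fads2*, the delta-6 desaturase of polyunsaturated fatty acids, the lowest log2 change (-0.28, SE 0.11, adjusted *p* = 0.222, limma). Genes of SREBP processing and control gave 8 of 10 higher as deposited, 5 with quantile normalization and 3 with the same sum, with a median of 0.07 as deposited and -0.09 with the same sum. Within them *Insig1*, a sterol sensor and SREBP target, had the highest log2 change (0.51) and *Insig2* the lowest log2 change (-0.31). With the same sum *Insig1* was at 0.33 (unadjusted *p* = 0.0749, limma) and *Insig2* at -0.49 (0.0198), against 0.0217 and 0.15 as deposited. Other LXR targets had 4 of 7 higher, 2 with the same sum, and a median of 0.08, which was -0.08 with the same sum, from *Abcg5* (0.45) to *Cyp7a1* (-0.28), the first enzyme of bile acid synthesis.

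Supply of acetyl-CoA and citrate comprises the pyruvate dehydrogenase complex and the carriers and synthetases around it. Of its 11 tested genes, 10 had a higher mean as deposited and 6 with the same sum, and 5 were higher and 0 lower at an unadjusted *p* below 0.05, or 2 higher and 1 lower (*Cs*) with the same sum. *Pdhb*, a pyruvate dehydrogenase subunit, had the highest log2 change (0.59, SE 0.13, adjusted *p* = 0.134, limma), and *Cs*, the citrate synthase, was at -0.04. In the NADPH list 6 of 9 were higher, 3 with the same sum, with a median of 0.10 that was -0.07 with the same sum. There *Rpia* had the highest log2 change (0.35) and *G6pdx*, which opens the pentose phosphate pathway, the lowest log2 change (-0.27). The paralogs of the members had 3 of 10 tested genes higher, 2 with the same sum. Their median was -0.03, or -0.20 with the same sum, with *Mid1ip1* and *Scd2* at the ends. At an unadjusted *p* below 0.05, 1 paralog was lower as deposited and 2 with the same sum.

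Lists of genes of upstream signals had medians near or below 0. These are transcript levels, and the activity of the signals was not measured. AMPK, the kinase that inactivates both carboxylases, had 2 of 6 tested genes of its subunits and upstream kinase higher, 0 with the same sum. Their median was -0.01, or -0.17 with the same sum, from *Prkag2* (-0.04) to *Prkag1* (0.18) as deposited. Of these genes 0 passed an unadjusted *p* below 0.05 as deposited, although 2 were lower with the same sum. Insulin signalling had 5 of 10 higher, 2 with the same sum. Its median was -0.03, or -0.20 with the same sum, from *Trib1* (-0.50) to *Foxo1* (0.24) as deposited. Here too 0 passed an unadjusted *p* below 0.05 as deposited, and 2 were lower with the same sum. Genes of the thyroid hormone response, to which *Thrsp* and *Me1* belong, had 2 of 6 higher. Their median was -0.09, or -0.26 with the same sum, from *Thra* (-0.24) to *Gpd2* (0.32) as deposited. At an unadjusted *p* below 0.05, 1 of these was higher and 0 lower as deposited, and 0 were higher and 2 lower with the same sum. On that scale 236 of all 11493 tested genes were higher and 2504 lower at this threshold, so lower counts there are not particular to these lists.

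**Figure D4:**
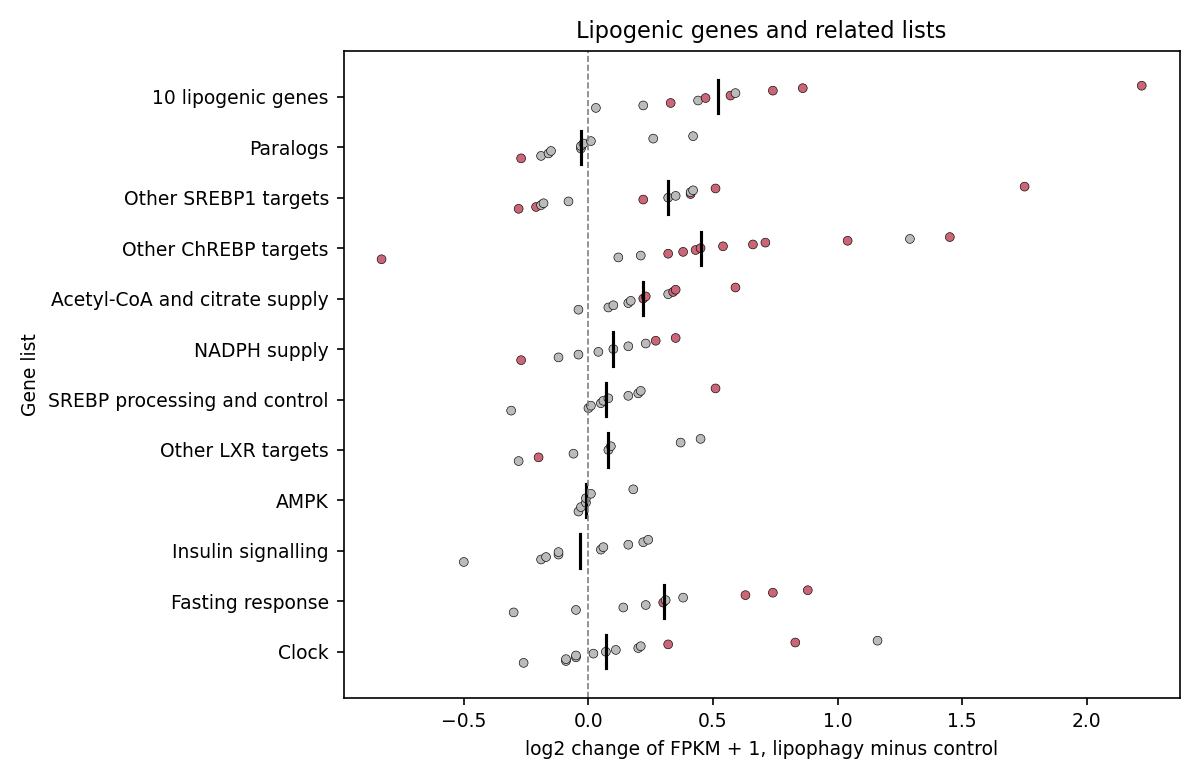
Log2 change of each tested gene, lipophagy minus control, by list, with red points at an unadjusted *p* below 0.05 (limma) and a black bar at the list's median. The 10 lipogenic genes (median 0.52) and the other ChREBP targets (0.45, or 0.27 with the same sum) have the highest medians as deposited. Transcripts of AMPK and insulin signalling genes have medians near 0 as deposited (-0.17 and -0.20 with the same sum).

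Feeding state and time of day also move these genes in liver, and their markers differed among the livers. Of the fasting response, 8 of 10 had a higher mean, 7 with the same sum, and 4 were higher and 0 lower at an unadjusted *p* below 0.05, or 1 higher and 1 lower (*Cpt1a*) with the same sum. *Angptl4* had the highest log2 change (0.88, SE 0.25) and *Cpt1a*, the entry enzyme of fatty acid oxidation, the lowest log2 change (-0.30, SE 0.16). *Pck1*, a gluconeogenic enzyme named after its values were seen, had 512, 709 and 497 FPKM in control and 828, 736 and 1390 FPKM in lipophagy livers 1, 2 and 3, highest in lipophagy liver 3. Clock genes had 8 of 13 higher, 5 with the same sum, and a median of 0.07, -0.10 with the same sum, from *Arntl* (-0.26) to *Ciart* (1.16). *Ciart* had 2.46, 2.62 and 4.76 FPKM in control and 2.98, 4.50 and 35.5 FPKM in lipophagy livers 1, 2 and 3, so lipophagy liver 3 stood apart. The part of feeding or time of day in the member values was not tested.

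Fat tissue also expresses lipogenic genes, and its defining markers were at or near 0. *Lep* was listed at 0 in all 6 livers, *Adipoq* reached at most 0.0395 FPKM, and 5 of 11 adipocyte markers passed the filter. Of these, 1 had a higher mean of log2(FPKM + 1), 2 with quantile normalization and 0 with the same sum. At an unadjusted *p* below 0.05, 1 of them was lower as deposited and 3 with the same sum. With the same sum 2504 of all 11493 tested genes were lower at this threshold and 236 higher. The summed level of the list was 43.0 to 48.8 FPKM in control and 35.5 to 36.8 FPKM in lipophagy livers, mostly from *Fabp4* and *Pparg*, which other liver cells also express. These 4 markers, and *Alb* and *Cidec*, were named after their values were seen. *Cidec*, a droplet protein that steatotic hepatocytes express as well, had the lowest log2 change (-1.47, SE 0.22, adjusted *p* = 0.0897, limma). Among other cell types, 9 of 10 stellate cell markers and 6 of 9 tested macrophage markers had a lower mean in lipophagy livers (9 of 9 macrophage markers with the same sum), with medians of -0.33 and -0.15, the latter -0.34 with the same sum. At an unadjusted *p* below 0.05, 6 stellate cell and 4 macrophage markers were lower and 0 higher. Bile duct markers were lower in 5 of 5 tested genes (4 of 5 with quantile normalization) with a median of -0.53, at an unadjusted *p* below 0.05 in 0 as deposited and 4 with the same sum, lymphocyte markers in 2 of 2 and endothelial markers in 2 of 9, or 6 of 9 with the same sum. The part of these cells in the member values was not tested.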

How the data were processed

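Poly(A) liver RNA was sequenced as stranded TruSeq libraries in 100 bp paired-end mode; the labels and the study's methods name different Illumina instruments. The authors deposited FPKM values per gene symbol and liver. The submitters' notes name TopHat2 2.0.13, Bowtie2 2.2.3, SAMtools 0.1.19, Cufflinks 2.2.1 and the build mm10; the annotation and strand setting are not given in the sources used here. Groups and replicate numbers came from sample titles.

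Genes averaging 0.5 FPKM or more over the 6 livers were tested as log2(FPKM + 1) with limma 3.58.1 (R 4.3.3; intensity trend, no block) and Benjamini-Hochberg adjustment over 11493 genes, threshold 0.05. Changes are on the log2(FPKM + 1) scale, which understates those of low genes. The procedure was tested on simulated data. Depth was estimated from steps of low FPKM values in single-transcript genes of GENCODE M21, less 150 bases of length, and without that subtraction or with 300 bases it ranged from 21600000 to 36500000 fragments. Coordinates are from GENCODE M21 (GRCm38). Python 3.11.15 and pandas 2.3.3 made the tables. The members and lists were chosen with earlier results of these data known. Besides the members, the genes of highest and lowest change in each pathway list (not the cell type markers), the paralogs compared with a member, and the 5 genes nearest in profile to *Thrsp* and *Srebf1* were named. *P* values measure the spread between these livers. Alternatives were other pseudocounts, filters, scalings and weights, no trend, a replicate block and each liver left out. Some genes of the lists are counted but not reported by name here.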

Additional observations from a re-analysis of the deposited data

How the results depend on the processing

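The 17 alternatives left the direction of 9 members as reported, while *Mlxipl* was at -0.12 with quantile normalization and -0.15 with the same sum in every liver, and ranged from -0.0399 to 0.0915 with each liver left out. The number of all genes with an adjusted *p* below 0.05 (limma) was 3, and it was 1 without the filter, 104 with the same sum, 39 with a quality weight for each liver and 1 to 11 with each liver left out. Members higher at an unadjusted *p* below 0.05 numbered 6 (11.5% of all genes), 3 with the same sum (2.05%) and 3 to 8 with each liver left out (6.96% to 14%). Members higher without overlap numbered 4 (15.4%), 2 with the same sum (2.74% of all genes) and 4 to 8 with each liver left out (18.4% to 25.9%). *Thrsp* passed the adjustment in 1 alternative, without lipophagy liver 2 (adjusted *p* = 0.0406, limma), and its adjusted *p* was 0.0528 to 0.336 in the others. With the replicate number as a block 43 genes and 0 members had an adjusted *p* below 0.05, and 8 members were higher at an unadjusted one below 0.05 (9.86% of all genes). The numbers share no stated pairing, and deviations of same-numbered livers correlated at 0.25, 0.234 and -0.0565 across genes, so the block was not used. The 95% intervals of *Srebf1*, *Scd1*, *Me1* and *Mlxipl* included 0.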
